A study of Mus musculus with 24 samples.

Results

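The genes described here belong to the plasminogen activation system and the coagulation steps that neighbour it: Plau, Plaur, Plat, Serpinb2, F3, F10 and Thbs1. The 7 genes were taken by symbol from a table of 24273 genes, each had 1 row, and each passed the filter on low values that left 13901 genes to be tested. They were measured by RNA sequencing in bone marrow-derived macrophages (BMDMs), macrophages grown from bone marrow of C57BL/6 mice in medium conditioned by L cells. Cells from LysM-Cre mice served as controls, and cells from LysM-Cre Fos-fl/fl mice were labelled FosKO. Cells were left untreated (0 h) or received LPS, a bacterial ligand of the receptor TLR4, at 100 ng/ml for 0.5, 1 or 2 h. With 3 libraries in each of 8 groups, the series had 24. By the study's text all groups carry LysM-Cre, a Cre recombinase placed at the lysozyme locus Lyz2 and active in myeloid cells. That text gives the controls 1 floxed Fos allele where the series' own text names LysM-Cre alone. Lyz2 levels, given below, differed between the genotypes.

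Plasminogen is a circulating zymogen that is cut to plasmin, the protease that dissolves fibrin and loosens extracellular matrix. Urokinase (Plau), held at the surface of macrophages by its receptor (Plaur), and tissue plasminogen activator (Plat) make that cut, and serpins such as PAI-2 (Serpinb2) inhibit both activators. Tissue factor (F3) starts coagulation on cell surfaces by activating factor X (F10), and thrombospondin-1 (Thbs1) is a secreted matrix glycoprotein that binds CD36, CD47 and components of the fibrinolytic system. FOS, the protein whose gene was targeted, pairs with JUN proteins as the transcription factor AP-1.

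The values are the deposited log2 values, on which a difference of 1 is a doubling. A gene was called where the adjusted p of limma, taken over all 13901 genes, was under 0.05, and differences are given with their standard error (SE). The study's methods call the libraries of a group biological replicates, but neither they nor the labels say whether they came from separate mice or separate cultures, and p-values measure the spread between these libraries. In bulk samples such as these, fewer cells of a type and less RNA per cell cannot be told apart.

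Several features of the libraries touch the values that follow. Gene-level values of Fos did not check the label, and FosKO stands here for libraries so labelled. Fos lay between 12.41 and 12.93 in the libraries labelled FosKO and between 9.42 and 13.57 in LysM-Cre libraries. Lyz2, the locus of the Cre, lay at 16.08 to 16.33 in FosKO and at 10.87 to 11.57 in LysM-Cre libraries. The genotypes thus differed in Lyz2 as well as in the Fos label, without overlap. These cannot be told apart in the comparisons below, and the part of the Cre locus was not tested. Mean Fos was higher in FosKO than in LysM-Cre at 0 h (12.60 against 11.11) and 1 h (12.78 against 11.15). At 2 h it was higher too (12.80 against 9.52), and at 0.5 h it was lower (12.75 against 13.52). In FosKO the means thus stayed between 12.60 and 12.80, while in LysM-Cre they peaked at 0.5 h and were lowest at 2 h. Gene totals do not show whether the floxed part of Fos was lost, so the label was not tested by these values. An 18S ribosomal RNA gene, Rn18s-rs5, split the libraries into 5 low ones (16.65 to 17.00, in LysM-Cre 0.5 h replicate 3, LysM-Cre 1 h replicates 2 and 3, and replicate 1 of the libraries labelled FosKO at 0.5 h and at 1 h) and 19 high ones (18.57 to 19.39). At 0.5 h the low set held 1 library of each genotype and the high set 2 of each. At 1 h the low set held 1 FosKO and 2 LysM-Cre libraries, and the high set 2 FosKO and 1 LysM-Cre. Differences within these sets are given as values only, without a test. Macrophage markers were abundant in every library (all 7 passed the filter), and their summed linear level was 143577 to 174412 in LysM-Cre libraries and 140651 to 186788 in those labelled FosKO. Among them Mertk (9.07 to 9.98 and 10.66 to 10.99), Fcgr1 (12.20 to 12.74 and 12.98 to 13.70) and Cd68 (15.05 to 15.14 and 15.21 to 15.38) were higher in FosKO libraries without overlap, and the ranges of the others overlapped. Their part in the genotype differences of the 7 genes was not tested. Of the neutrophil markers 3 of 7 passed, and their sum was 70.5 to 145 in LysM-Cre libraries and 46.4 to 77.4 in those labelled FosKO, with Ly6g and Elane at the floor of the table. The platelet and megakaryocyte list (2 of 6 passed) summed to 2066 to 2700 and 1662 to 2225, almost wholly Pf4, with Gp9 near the floor. The endothelial list (2 of 5 passed) summed to 327 to 425 in LysM-Cre libraries and 500 to 1034 in those labelled FosKO. That sum was nearly all Kdr, and Tek and Emcn were near the floor. Fibroblast (3 of 5 passed, 17.96 to 33.1 and 16.9 to 25.6), dendritic cell (2 of 3, 27.5 to 119 and 27.0 to 85.4) and mast cell (1 of 3, 22.6 to 40.4 and 18.1 to 30.6) sums were low, and no B cell or T cell marker passed.

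Levels can be compared between genes only per length, here as the log2 value less the log2 of the exon length in kilobases, from the union of annotated exons. A union can be longer than the transcript a cell makes, so the order of genes rests on these lengths (6.24 kb for Plat, 2.35 kb for Serpinb2). Overlap of libraries does not measure that error. On that scale untreated LysM-Cre macrophages held most Plau (11.998 ± 0.16, SD, n = 3), then Plaur (9.07 ± 0.09), F10 (6.35 ± 0.07), Thbs1 (5.74 ± 0.10), F3 (3.93 ± 0.18), Serpinb2 (2.83 ± 0.11) and Plat (2.11 ± 0.18), and the libraries of no neighbouring pair in this order overlapped. Urokinase and its receptor were thus the leading transcripts of the 7. At 2 h of LPS the order in LysM-Cre was Plau (10.93), Plaur (10.70), F10 (7.57), Plat (6.89), Thbs1 (6.70), F3 (5.85) and Serpinb2 (5.43), again without overlap between neighbours. In the libraries labelled FosKO at 2 h, Plaur (10.43) stood above Plau (10.18), followed by F10 (8.19), Thbs1 (7.59), Serpinb2 (6.73), F3 (6.43) and Plat (6.22), and there only F3 and Plat overlapped.

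AP-1 binds TGANTCA, and this motif was looked for on both strands in windows from 250 bases before to 50 after RefSeq gene starts (GRCm38.p6), together with 5 other motifs. The window table held entries for Plaur, Serpinb2 (2 starts), F3 and F10. TGANTCA was found in 4 of these 5 windows, and 5.89% of the 16125 windows of genes in the expression table hold it. The 2 Serpinb2 windows share 1 match. The stretches around the matches are shown because AP-1 is the factor that FOS is part of. Capitals mark TGANTCA, and the strand of the gene is printed, which is the plus strand in each case. In Plaur (chr7:24462389-24462445) the match lies 69 to 63 bases before the start, in Serpinb2 (chr1:107511304-107511360) 94 to 88 bases before the first start and 181 to 175 before the second, and in F3 (chr3:121723366-121723433) there are 2 matches, 146 to 140 and 135 to 129 bases before the start.
Plaur: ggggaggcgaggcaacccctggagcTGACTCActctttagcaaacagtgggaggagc
Serpinb2: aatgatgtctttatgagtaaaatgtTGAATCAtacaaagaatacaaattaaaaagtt
F3: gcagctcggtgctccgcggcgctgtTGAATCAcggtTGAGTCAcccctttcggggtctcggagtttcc

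The F10 window holds no TGANTCA. The GC box GGGCGG was found in the windows of Plaur and F3 (55.5% of all windows hold it) and the Egr motif GCGNGGGCG in that of Plaur, where it overlaps GC boxes (9.1% of all windows). The CRE motif TGACGTCA (2.75%), the NF-kB motif (10.2%) and the CArG box (1.27%) were in none of the 5 windows. A match is a description of the letters and not a measured site.

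**Figure D1:**
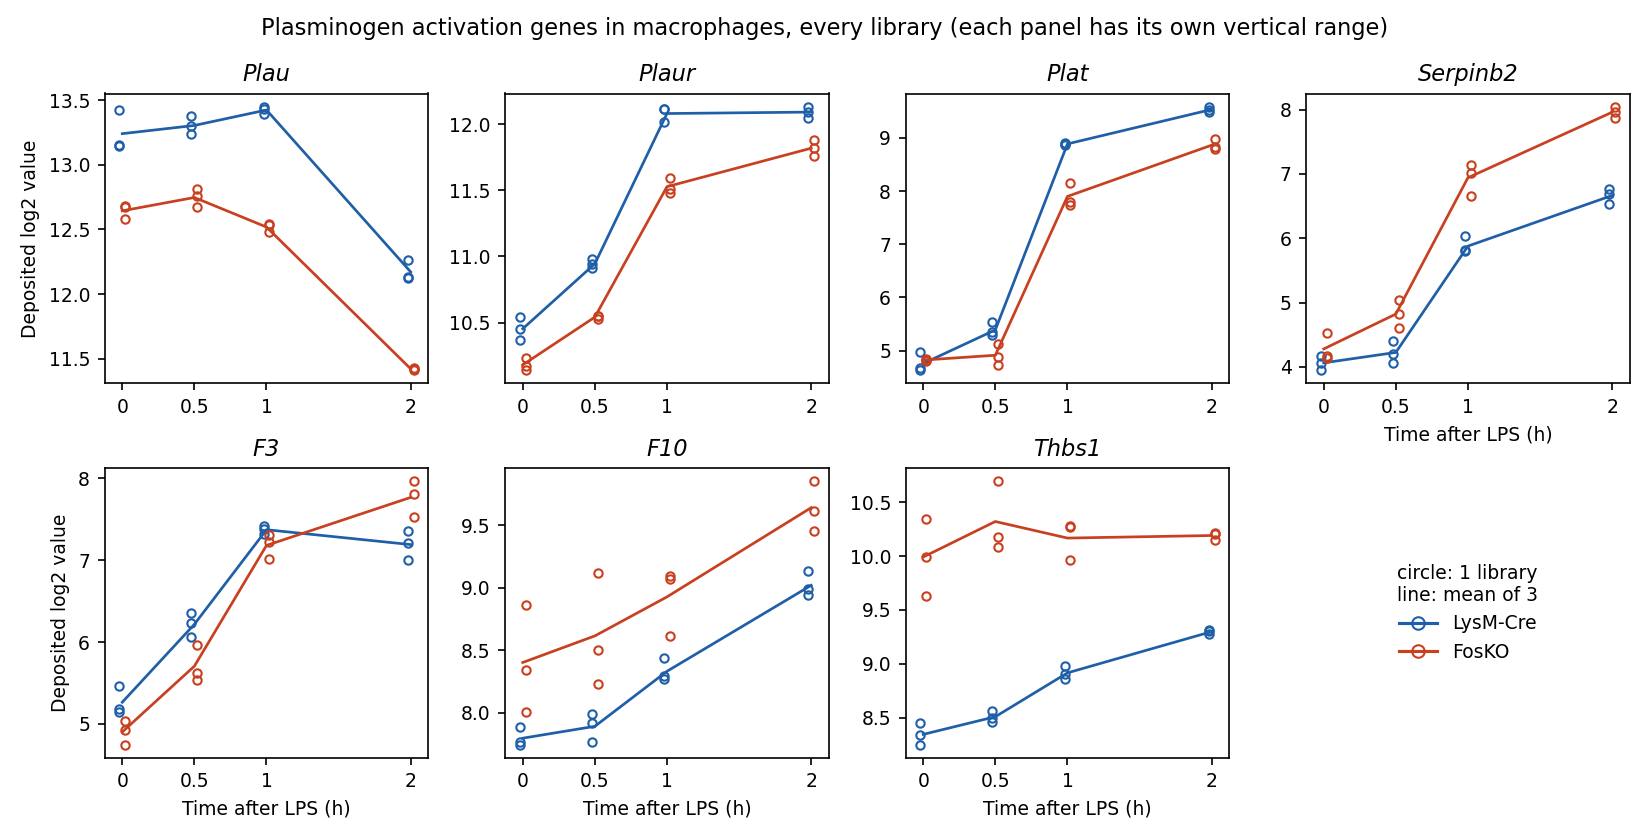
Deposited log2 value (vertical axis, own range in each panel) against hours after LPS (horizontal axis) for the 7 genes. Circles are single libraries, 3 per group, and lines join group means, with LysM-Cre in blue and in red the libraries labelled FosKO. Plau and Plaur lie lower, and Thbs1 and F10 higher, in the red libraries at all 4 times without overlap, whereas the F3 lines cross between 1 and 2 h.

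The first comparison was of genotypes at each time. At 0 h, 5 of the 7 genes were called between libraries labelled FosKO and LysM-Cre libraries (2 higher, 3 lower), against 35.4% of all genes tested. At 0.5 h all 7 were called (3 higher and 4 lower, against 40.9% of all genes). At 1 h 6 were called (3 higher and 3 lower, against 33.9%), and at 2 h all 7 (4 higher and 3 lower, against 44.6%). The median difference of the 7 genes was 0.06, -0.40, -0.19 and 0.58 at the 4 times, and that of all tested genes was within 0.01 of 0 at each. In FosKO relative to LysM-Cre, Plau and Plaur were lower and F10 and Thbs1 higher at all 4 times. Plat was lower and the serpin Serpinb2 higher at the LPS times only. F3 was lower at 0 and 0.5 h and higher at 2 h. The second comparison was of each LPS time with 0 h. In LysM-Cre macrophages, 3 of the 7 genes rose at 0.5 h (7.24% of all genes were called), all 7 rose at 1 h (35.8%), and at 2 h 6 rose and Plau fell (60.8%). In macrophages labelled FosKO, 3 rose at 0.5 h (5.92%), 5 at 1 h (32.6%), and at 2 h 5 rose and Plau fell (62.1%). The third comparison tested whether the LPS response itself differed between genotypes, and these differences of response share the 0 h libraries. None of the 7 was called by limma at 0.5 h (0.115% of all genes, and 2 of the 7 had an unadjusted p under 0.05), 3 were called at 1 h (1.22%) and 4 at 2 h (15.0%).

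Plau (ENSMUSG00000021822; mm10 chr14:20836660-20843385, plus strand, protein-coding), which encodes urokinase, was lower at every time in the libraries labelled FosKO. Untreated LysM-Cre libraries read 13.42, 13.15 and 13.15 and untreated libraries labelled FosKO 12.67, 12.68 and 12.58. At 1 h the values were 13.43, 13.39 and 13.45 against 12.48, 12.53 and 12.54, and at 2 h 12.26, 12.13 and 12.12 against 11.42, 11.41 and 11.43. All LysM-Cre libraries lay above all libraries labelled FosKO at each time, 0.5 h included (13.23 to 13.38 against 12.67 to 12.81). The difference, FosKO minus LysM-Cre, was -0.60, -0.56, -0.91 and -0.75 at 0, 0.5, 1 and 2 h (SE 0.06, adjusted p 1.23e-07, 1.86e-07, 3.06e-10 and 2.86e-09), so that LysM-Cre held 1.51-, 1.47-, 1.87- and 1.68-fold more. Within the high 18S set the difference was -0.52 at 0.5 h and -0.89 at 1 h, and within the low set -0.63 and -0.94.

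Plau was the one gene of the 7 that fell after LPS. Between 0 and 2 h it fell by 1.07 in LysM-Cre macrophages (adjusted p 1.35e-12) and by 1.22 in macrophages labelled FosKO (adjusted p 1.35e-13), a loss of 2.10-fold and 2.33-fold. At 1 h the change was small and the 2 genotypes stood on either side of 0: 0.18 in LysM-Cre (adjusted p 0.0179, with overlapping libraries) and -0.13 in FosKO (adjusted p 0.11). The rise in LysM-Cre was not called when any of LysM-Cre 0 h replicates 2 and 3 or LysM-Cre 1 h replicate 3 was left out (0.14, 0.14 and 0.17), nor in a fit of the groups compared only. In the high 18S libraries alone, with 1 LysM-Cre library at 1 h, it was 0.19. Quantile normalisation turned it to -0.03 (adjusted p 0.708) and gave a called fall of 0.30 in FosKO (adjusted p 0.000798). The difference in response at 1 h was -0.31 (95% interval -0.48 to -0.14, adjusted p 0.0857). It was called without LysM-Cre 0 h replicate 1, the highest of the untreated libraries (-0.40, adjusted p 0.0015), as was the difference at 2 h (-0.24 against -0.15 with all libraries, adjusted p 0.0139 against 0.245). A replicate block within genotype called the 1 h difference in response too (-0.31, adjusted p 0.0114), and the FosKO change at 1 h (-0.13, adjusted p 0.0324).

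Plaur (ENSMUSG00000046223; mm10 chr7:24462484-24475968, plus strand, protein-coding), the urokinase receptor, a glycolipid-anchored surface protein, was likewise lower at every time in the libraries labelled FosKO. Untreated values were 10.54, 10.45 and 10.37 in LysM-Cre and 10.23, 10.14 and 10.17 in FosKO. At 1 h they were 12.01, 12.11 and 12.11 against 11.51, 11.48 and 11.59, and at 2 h 12.05, 12.13 and 12.09 against 11.82, 11.76 and 11.88. The genotypes did not overlap at any time, with 10.91 to 10.98 against 10.53 to 10.55 at 0.5 h. The difference was -0.27, -0.40, -0.55 and -0.27 at 0, 0.5, 1 and 2 h (SE 0.04; adjusted p 3.01e-05, 1.68e-07, 3.62e-09 and 1.88e-05). Within the high 18S set it was -0.39 at 0.5 h and -0.48 at 1 h, and within the low set -0.43 and -0.60. Neutrophils express Plaur too, and the neutrophil sum given above moved the same way with Ly6g and Elane at the floor. Its part in the Plaur difference was not tested.

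LPS raised Plaur in both genotypes. The rise in LysM-Cre was 0.49, 1.63 and 1.64 at 0.5, 1 and 2 h, and in macrophages labelled FosKO it was 0.36, 1.35 and 1.64 (SE 0.04, all called). At 2 h both rises amounted to 3.11-fold. The response at 1 h was smaller in FosKO by 0.28 (SE 0.06, adjusted p 0.0159), whereas at 2 h the difference in response was 0.00 (95% interval -0.12 to 0.12). The 1 h call was lost in a fit of the groups compared only (adjusted p 0.116), and without LysM-Cre 0 h replicate 3, LysM-Cre 1 h replicate 2 or 3, or FosKO 1 h replicate 2 (-0.26 to -0.24, adjusted p 0.0539 to 0.0612). In the high 18S libraries alone, with 1 LysM-Cre library at 1 h, the difference in response at 1 h was -0.21.

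Plat (ENSMUSG00000031538; mm10 chr8:22757727-22782844, plus strand, protein-coding), tissue plasminogen activator, had the largest LPS response of the 7 genes at 1 and 2 h and started low. In LysM-Cre it read 4.63, 4.97 and 4.67 before LPS, then 5.34, 5.54 and 5.28 (0.5 h), 8.91, 8.89 and 8.87 (1 h), and 9.53, 9.59 and 9.49 (2 h). In the libraries labelled FosKO the same times gave 4.82, 4.80 and 4.85, then 4.72, 4.88 and 5.13, then 7.80, 7.74 and 8.16, then 8.79, 8.82 and 8.98. The genotypes overlapped at 0 h and were apart at each LPS time, with FosKO below.

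The rise of Plat in LysM-Cre was 0.63 at 0.5 h (adjusted p 0.000548), 4.13 at 1 h and 4.78 at 2 h (SE 0.11), or 17.5-fold and 27.5-fold at the later times. In macrophages labelled FosKO it was 0.09 at 0.5 h (adjusted p 0.704), 3.08 at 1 h and 4.04 at 2 h, or 8.45-fold and 16.5-fold. The response differed by -1.05 at 1 h (SE 0.16, adjusted p 0.000476) and by -0.74 at 2 h (adjusted p 0.00257), and at 0.5 h by -0.54 (95% interval -0.87 to -0.21), which was not called (adjusted p 0.557). Between genotypes Plat differed by 0.06 at 0 h (95% interval -0.17 to 0.29), and by -0.48, -0.99 and -0.67 at 0.5, 1 and 2 h (adjusted p 0.709 before LPS, then 0.00155, 6.8e-07 and 4.35e-05). Within the high 18S set the difference was -0.43 at 0.5 h and -0.96 at 1 h, and within the low set -0.56 and -1.08.

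Serpinb2 (ENSMUSG00000062345; mm10 chr1:107511423-107535478, plus strand, protein-coding), which encodes the inhibitor PAI-2, rose more in the macrophages labelled FosKO. LysM-Cre libraries read 3.95, 4.17 and 4.06 before LPS, then 4.07, 4.21 and 4.40 (0.5 h), 5.80, 5.81 and 6.03 (1 h), and 6.69, 6.54 and 6.77 (2 h). Libraries labelled FosKO read 4.16, 4.14 and 4.53, then 4.82, 4.60 and 5.04, then 6.65, 7.15 and 7.02, then 7.97, 7.87 and 8.05. From 0.5 h on, all 3 libraries labelled FosKO lay above all 3 LysM-Cre libraries.

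The difference in Serpinb2 between genotypes was 0.22 at 0 h (adjusted p 0.244), 0.60 at 0.5 h (adjusted p 0.00145), 1.06 at 1 h (adjusted p 4.02e-06) and 1.29 at 2 h (SE 0.14, adjusted p 1.92e-07), the last a 2.45-fold higher level. LPS raised it in LysM-Cre by 0.16 at 0.5 h (not called, adjusted p 0.636), 1.82 at 1 h and 2.60 at 2 h, and in FosKO by 0.54 (adjusted p 0.0191), 2.66 and 3.68, so that the 2 h rise was 6.07-fold and 12.8-fold. The response at 2 h was larger in FosKO by 1.08 (SE 0.19, adjusted p 0.000586), a call kept under every alternative tried. At 1 h it was larger by 0.85 (adjusted p 0.031), and this call was lost in 10 of 23 alternatives, 8 of them leaving out 1 library (any of LysM-Cre 0 h replicates 2 and 3, LysM-Cre 1 h replicates 1 and 2, FosKO 0 h replicates 1 and 2 and FosKO 1 h replicates 2 and 3; 0.74 to 0.85). The FosKO rise at 0.5 h was lost without FosKO 0 h replicate 1 or 2 or FosKO 0.5 h replicate 3 (0.43 to 0.48), and in a fit of the groups compared only (0.54, adjusted p 0.225). Within the high 18S set the genotype difference was 0.68 at 0.5 h and 1.29 at 1 h, and within the low set 0.42 and 0.74.

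**Figure D2:**
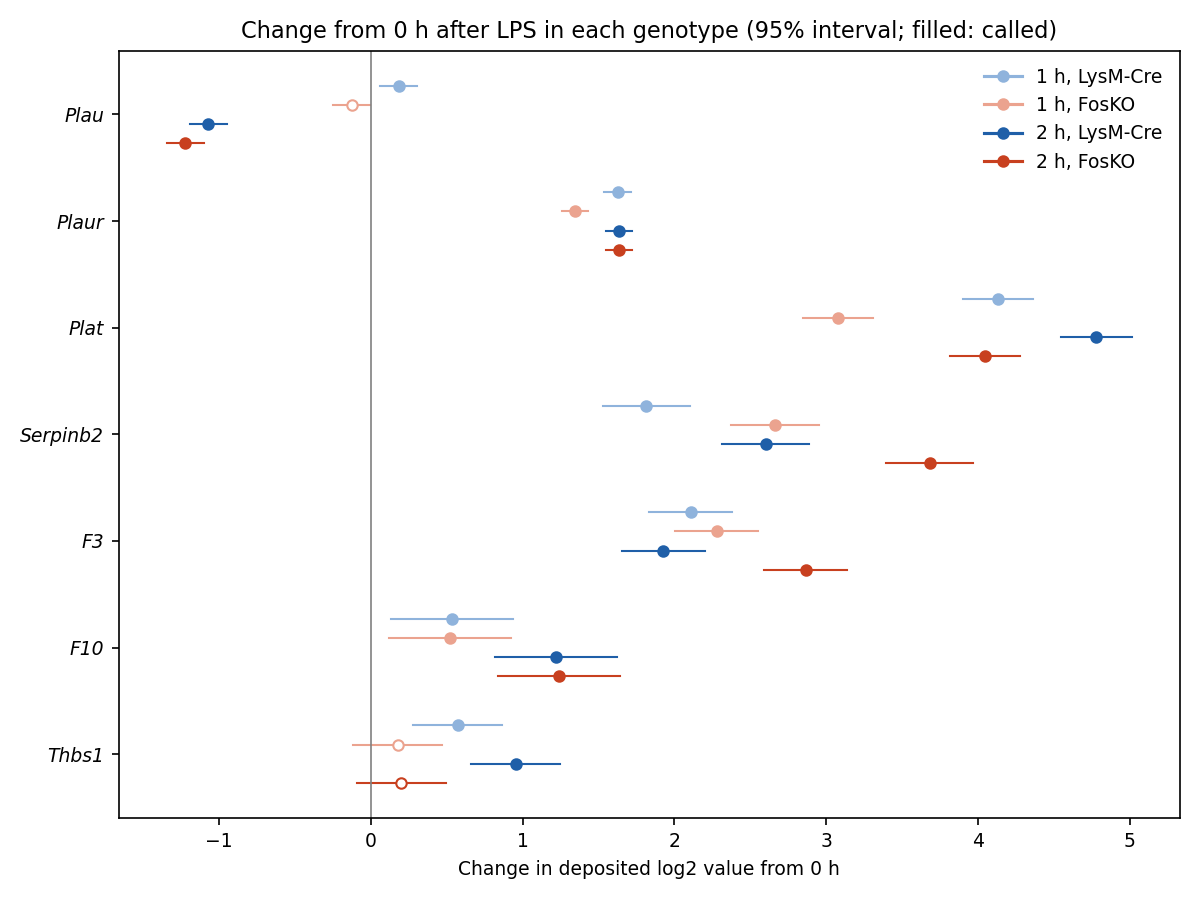
Change from 0 h in deposited log2 value (horizontal axis) for the 7 genes (vertical axis) at 1 and 2 h of LPS, in LysM-Cre (blue) and in libraries labelled FosKO (red), pale at 1 h and dark at 2 h. Points are limma estimates over 3 libraries per group, lines 95% intervals, and filled points were called. Plat rose most, by 4.78 and 4.04 at 2 h, and Plau alone fell. Serpinb2 and F3 stand further right in red at 2 h, and Plat further left.

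F3 (ENSMUSG00000028128; mm10 chr3:121723537-121735048, plus strand, protein-coding), tissue factor, changed its order between genotypes during the time course. Untreated LysM-Cre libraries read 5.15, 5.47 and 5.18 and untreated libraries labelled FosKO 4.75, 4.92 and 5.04. At 0.5 h the values were 6.06, 6.36 and 6.23 against 5.54, 5.62 and 5.96, and at 1 h 7.42, 7.32 and 7.38 against 7.22, 7.02 and 7.30. At 2 h they were 7.01, 7.21 and 7.36 against 7.81, 7.53 and 7.96. LysM-Cre was above without overlap at 0, 0.5 and 1 h, and FosKO was above without overlap at 2 h.

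The F3 difference was -0.36 at 0 h (SE 0.13, adjusted p 0.0364), -0.51 at 0.5 h (adjusted p 0.00355), -0.19 at 1 h (not called, adjusted p 0.287) and 0.58 at 2 h (adjusted p 0.00117). LPS raised F3 in LysM-Cre by 0.95, 2.11 and 1.93 at 0.5, 1 and 2 h and in FosKO by 0.80, 2.28 and 2.86, all called. The 2 h response was thus 3.80-fold in LysM-Cre and 7.28-fold in FosKO, and the difference, 0.94 (SE 0.19, adjusted p 0.00135), kept its call under every alternative tried. At 1 h the responses differed by 0.17 (95% interval -0.22 to 0.56). The difference at 0 h was lost under 7 of 16 alternatives, among them leaving out LysM-Cre 0 h replicate 2, FosKO 0 h replicate 1 or FosKO 0 h replicate 2 (-0.26, -0.29 and -0.37), and that at 0.5 h in the high 18S libraries alone (-0.42, adjusted p 0.0756). Within the low 18S set the difference was -0.70 at 0.5 h and -0.13 at 1 h, and within the high set -0.26 at 1 h.

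F10 (ENSMUSG00000031444; mm10 chr8:13037308-13056676, plus strand, protein-coding), the coagulation zymogen that tissue factor with factor VII activates, was higher at all times in the libraries labelled FosKO. LysM-Cre libraries read 7.76, 7.88 and 7.75 at 0 h and 8.99, 9.13 and 8.94 at 2 h, and libraries labelled FosKO 8.01, 8.34 and 8.86 and 9.46, 9.61 and 9.85. At 0.5 h they spanned 7.77 to 7.99 and 8.23 to 9.11, and at 1 h 8.27 to 8.44 and 8.62 to 9.09. The genotypes did not overlap at any time, but the FosKO libraries were spread widely at 0 h (SD 0.43) and 0.5 h (SD 0.45), against 0.07 and 0.11 in LysM-Cre. The difference was 0.60, 0.72, 0.59 and 0.62 at the 4 times (SE 0.19, adjusted p 0.0185, 0.00481, 0.021 and 0.0123), a 1.51- to 1.65-fold higher level.

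LPS raised F10 by 1.22 at 2 h in LysM-Cre and by 1.24 in FosKO (adjusted p 1.27e-05 and 1.04e-05), with a difference in response of 0.02 (95% interval -0.55 to 0.58). At 1 h the rises were 0.53 (adjusted p 0.0358) and 0.52 (adjusted p 0.0423), and neither was called without the filter on low values (adjusted p 0.0585 and 0.0705). Several F10 calls rested on single libraries. The genotype difference at 0 h was not called without FosKO 0 h replicate 3 (0.38, adjusted p 0.149) or LysM-Cre 0 h replicate 1 or 3 (0.59 and 0.58), that at 1 h without LysM-Cre 1 h replicate 1 or 3 or FosKO 1 h replicate 2 or 3 (0.51 to 0.57), and that at 2 h without FosKO 2 h replicate 3 (0.51, adjusted p 0.0625). The LysM-Cre rise at 1 h was lost when any 1 of its 6 libraries was left out (0.48 to 0.58), and the FosKO rise at 1 h without FosKO 0 h replicate 1 or 2 or FosKO 1 h replicate 2 or 3 (0.33 to 0.49). Within the high 18S set the genotype difference was 0.85 at 0.5 h and 0.79 at 1 h, and within the low set 0.46 and 0.27. The low FosKO libraries were replicate 1 at both times, and replicate 1 was the lowest FosKO library for F10 at every time. The 18S set and the replicate cannot be told apart here.

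Thbs1 (ENSMUSG00000040152; mm10 chr2:118111876-118127133, plus strand, protein-coding), thrombospondin-1, showed the largest genotype difference of the 7 genes at 0, 0.5 and 1 h. Untreated LysM-Cre libraries read 8.45, 8.25 and 8.33 and untreated libraries labelled FosKO 9.63, 10.00 and 10.35. At 0.5 h they read 8.50, 8.56 and 8.46 against 10.18, 10.09 and 10.70, at 1 h 8.91, 8.86 and 8.98 against 9.96, 10.27 and 10.28, and at 2 h 9.31, 9.28 and 9.31 against 10.21, 10.22 and 10.15. Every library labelled FosKO, at any time, lay above every LysM-Cre library, at any time. The difference was 1.65, 1.81, 1.25 and 0.89 at 0, 0.5, 1 and 2 h (SE 0.14; adjusted p 2.22e-08, 3.67e-09, 7.1e-07 and 2.63e-05), or 3.14-, 3.52-, 2.38- and 1.86-fold. Within the high 18S set it was 1.86 at 0.5 h and 1.36 at 1 h, and within the low set 1.72 and 1.04.

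Thbs1 rose with LPS in LysM-Cre by 0.16 at 0.5 h (not called), 0.57 at 1 h (adjusted p 0.00295) and 0.96 at 2 h (adjusted p 5.32e-06). In macrophages labelled FosKO the changes were 0.33, 0.18 and 0.20, none called (adjusted p 0.197, 0.379 and 0.23), and the response at 2 h was smaller there by 0.76 (SE 0.20, adjusted p 0.0128). Without FosKO 0 h replicate 3, the highest of the untreated FosKO libraries, all 3 changes were called (0.51, 0.35 and 0.38; adjusted p 0.0231, 0.0474 and 0.0187), and the difference at 2 h kept its call. In the high 18S libraries alone the LysM-Cre rise at 1 h was 0.56. That set holds 1 LysM-Cre library at 1 h, so no call is read from it. Thbs1 is made by platelets and endothelial cells as well as macrophages. The endothelial sum given above moved the same way, through Kdr (8.25 to 8.67 in LysM-Cre and 8.92 to 9.98 in FosKO) with Tek and Emcn near the floor, and the platelet sum moved the other way. Their part in the Thbs1 difference was not tested.

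**Figure D3:**
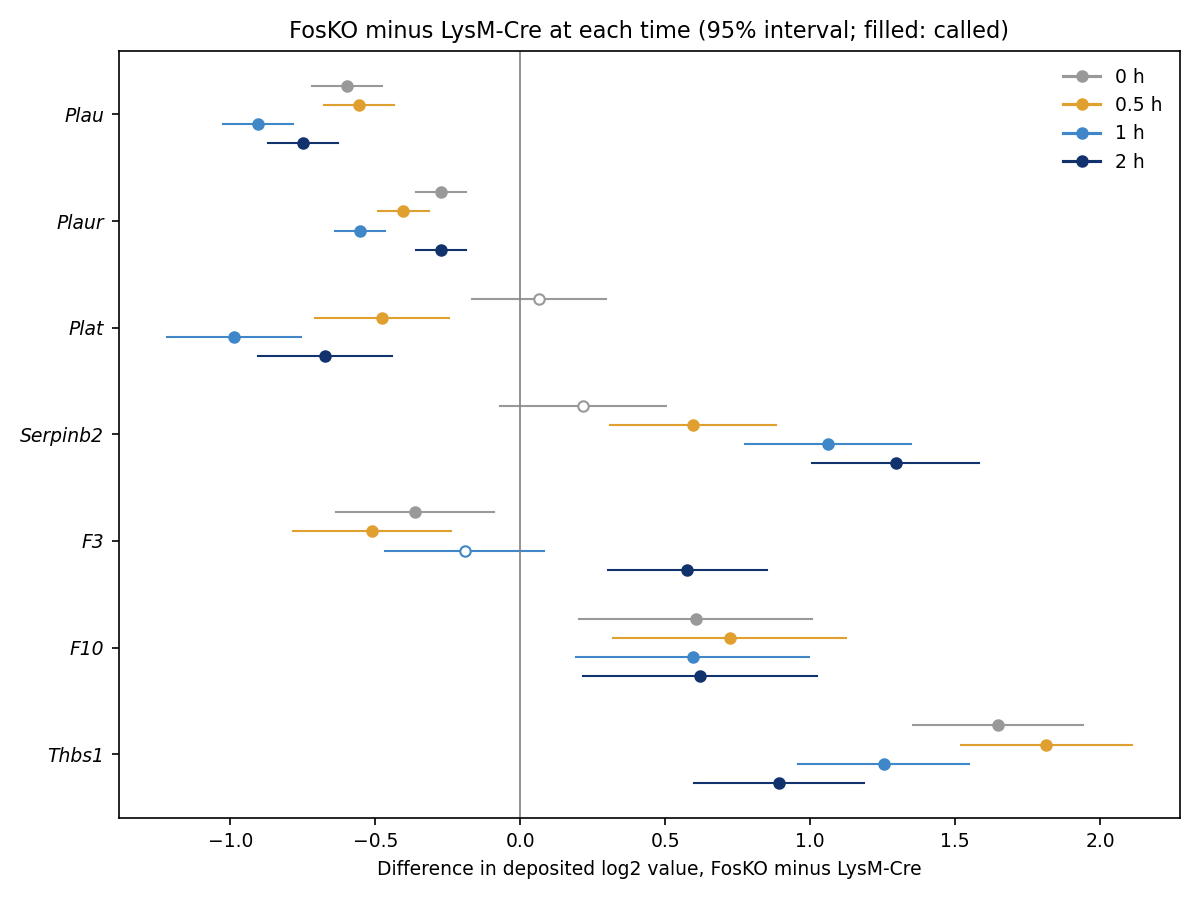
Difference in deposited log2 value, libraries labelled FosKO minus LysM-Cre (horizontal axis), for the 7 genes (vertical axis) at 0, 0.5, 1 and 2 h of LPS (grey, yellow, light blue, dark blue). Points are limma estimates from 3 libraries per group, lines 95% intervals, filled points called and open points not called. Plau and Plaur stay left of 0 and F10 and Thbs1 right of it at all times. Serpinb2 moves from 0.22 to 1.29, Thbs1 from 1.65 to 0.89, and F3 from -0.36 to 0.58.

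The profiles of the 7 genes over the 24 libraries were compared by Pearson's r as a description, since these points share time, genotype and library composition. Plat and Plaur ran most closely together (0.97), followed by F3 with Plaur (0.95) and F3 with Plat (0.93). Plau had a negative r with each of the other genes, lowest with F10 (-0.87) and Serpinb2 (-0.76). Among all tested genes, those most like each gene were Cdca2 for Plau (0.98, a gene of mitotic chromosomes), Noct and Fam43a for Plaur (0.99 each), Olr1 and Fam133b for Plat (0.99 each), Ch25h and Ints12 for Serpinb2 (0.99 each), Clcf1 and Pvr for F3 (0.98 each), Zc3hav1 and Rab21 for F10 (0.98 and 0.97) and Ctsz and Parp3 for Thbs1 (0.98 each).

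A list of 44 other genes of plasminogen activation, plasminogen binding and coagulation was examined beside the 7. Of these 36 were in the table and 26 were tested, and Plg, the plasminogen gene itself, was not analysed here. Between genotypes 19 of the 26 were called before LPS (10 of them higher and 9 lower in FosKO), beside 35.4% of all genes. After 0.5 h of LPS 20 were called (9 higher, 11 lower, beside 40.9%), after 1 h 18 (9 higher, 9 lower, beside 33.9%) and after 2 h 16 (9 higher, 7 lower, beside 44.6%). The median difference of the 26 genes was -0.06, -0.02, -0.12 and 0.12. One of the 26 differed by at least 2-fold, and it did so at each time. That gene was F13a1, the A subunit of the fibrin-crosslinking transglutaminase factor XIII, with 6.47 to 6.87 in LysM-Cre and 7.89 to 8.28 in FosKO libraries. It was higher in FosKO by 1.25, 1.52, 1.39 and 1.50 (SE 0.09, adjusted p 1.38e-09, 5.5e-11, 2.22e-10 and 4.29e-11). F13a1 did not pass the test after LPS in either genotype, with changes of -0.05 in LysM-Cre (adjusted p 0.631) and 0.20 in FosKO (adjusted p 0.0545) at 2 h.

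After LPS, 6 of the 26 genes were called at 1 h in each genotype (5 higher, 1 lower), beside 35.8% of all genes in LysM-Cre and 32.6% in FosKO. Under quantile normalisation the count at 1 h in LysM-Cre was 10. At 2 h 12 were called in LysM-Cre (7 higher, 5 lower, beside 60.8%) and 14 in FosKO (11 higher, 3 lower, beside 62.1%).

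**Figure D4:**
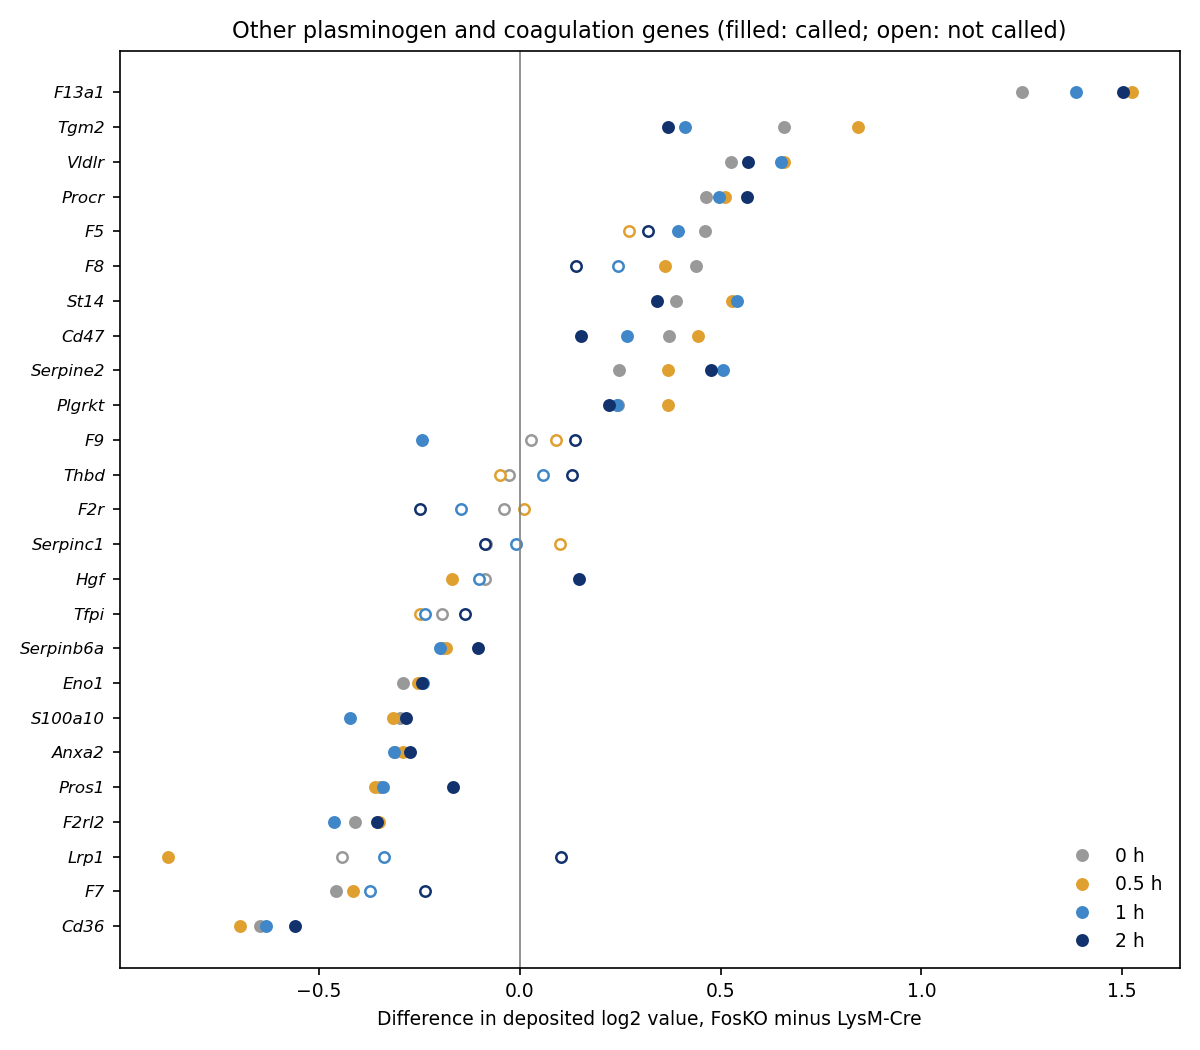
Difference in deposited log2 value, libraries labelled FosKO minus LysM-Cre (horizontal axis), for 25 of the 26 tested genes of the list, 1 not being drawn (vertical axis, ordered by the 0 h difference) at 0, 0.5, 1 and 2 h of LPS (grey, yellow, light blue, dark blue). Filled points were called and open points were not. F13a1 stands apart at 1.25 to 1.52.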

How the data were processed

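RNA was extracted from BMDMs and sequenced as strand-specific single-end TruSeq libraries. The authors' processing notes name STAR 2.5.2a, RSEM 1.2.31, DESeq2 1.16.1 and GRCm38 (mm10), and the study's methods name RefSeq genes. The authors deposited normalised log2 values, from -2.22 to 19.39, whose exact transform is not given in the sources used here. They resemble a regularised log, which shrinks differences of genes with few reads, so the differences of Plat, Serpinb2 and F3 at low levels may be understated. The study's methods give a typical read yield but none per library, so no counting interval was computed.

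The 7 genes and the list of 44 were chosen with earlier results of these data known, as were the alternatives. Genes with a linear value of at least 5 in at least 3 libraries were tested (13901). Replicate numbers, given by the labels, met the rule for pairing (r of same-numbered libraries over 0.1 in all 3 pairs) only for 0.5 h against 0 h in FosKO among the comparisons of groups, where the blocked fit changed no call of the 7 genes. All 24 libraries entered 1 limma fit (limma 3.58.1, R 4.3.3) of 8 group means with a variance trend, leaving 16 residual degrees of freedom, and 13 comparisons were drawn. P-values were adjusted by Benjamini-Hochberg over all tested genes. An exact permutation test of 3 against 3 cannot go below 0.1 and was not used. On simulated data made from the 13901 genes, the fit recovered 94% of log2 changes of 1 between genotypes at 2 h. It recovered 69% of changes of 0.5 there, and 84% and 51% for the 2 h difference in response. The simulation changed 200 genes and drew independent noise for each library. Far more genes were called in the real libraries, so these rates need not hold for them.

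The genes named are the 7, Plg in any case, other list genes called with at least a 2-fold genotype difference, and for each of the 7 the 2 genes with the highest Pearson r over 24 libraries, and 2 genes that this rule names are not reported here. Marker lists were of macrophages, neutrophils, platelets and megakaryocytes, fibroblasts, endothelial cells, B cells, T cells, dendritic cells and mast cells, summed as 2 raised to the value. Alternatives were quantile normalisation, a median shift, a pseudocount of 1, no filter, a stricter filter (20), fitting only the groups compared, no variance trend, a replicate block, an 18S term, the high 18S libraries alone and leaving out each library. Gene positions and exons came from GENCODE vM21 and gene start windows from RefSeq (GRCm38.p6).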

Additional observations from a re-analysis of the deposited data

Results flagged for a closer look

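Of the 21 differences in LPS response tested for the 7 genes, 7 were called. Of all tested genes 0.115%, 1.22% and 15.0% were called at 0.5, 1 and 2 h. At 1 h the called genes were Plaur (-0.28, FosKO minus LysM-Cre), Plat (-1.05) and Serpinb2 (0.85). The calls of Plaur and Serpinb2 at 1 h were lost in 6 and 10 of 23 alternatives, respectively. At 2 h they were Plat (-0.74), Serpinb2 (1.08), F3 (0.94) and Thbs1 (-0.76). The activator Plat and the inhibitor Serpinb2 were called at both times with opposite signs. Thbs1 differed at 2 h from a level that already differed by 1.65 at 0 h, whereas Plat and Serpinb2 differed by 0.06 and 0.22 at 0 h, neither called.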

How the results depend on the processing

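Each of the 91 results of the 7 genes was recomputed under the alternatives, and 73 were called, or not called, as reported under all of them (64 also kept their sign). Of 1645 recomputed values, 57 lost a call with the same sign and 8 gained one, and 28 changed sign. Of these 28, 1 belonged to a called result (Plau at 1 h in LysM-Cre, -0.0346 under quantile normalisation), and the other 27 to results that were not called, of size 0.21 or less. Between genotypes the replicate numbers did not meet the rule for pairing. There r of deviations from the group mean was -0.53 to 0.31 over 12 pairs, 2 of them over 0.1. Nor was the rule met within LysM-Cre (-0.25 to 0.41, 3 of 18). An r over all tested genes cannot show whether libraries of the same number at different times share a source. Within FosKO 9 of 18 pairs were over 0.1, and all 3 were so for 0.5 h with 0 h (0.13 to 0.27) and for 1 h with 0.5 h (0.33 to 0.71). With a replicate block within genotype, the calls at 0.5 h in FosKO went from 823 to 1179, and those of the 7 genes there were the same. A replicate block changed 2 of 154 member values, both with the block within genotype, where Plau was called at 1 h in FosKO (-0.13) and for the 1 h difference in response (-0.31). It raised the calls for the difference in response at 0.5 h from 16 to 25. Quantile normalisation gave 26 there and 10 rather than 6 list genes at 1 h in LysM-Cre. The high 18S libraries alone gave 9 at 0.5 h and 93 rather than 169 at 1 h for the difference in response, 2994 rather than 4708 between genotypes at 1 h, and 3009 rather than 4970 at 1 h in LysM-Cre. Fitting only the groups compared gave 6 rather than 16 at 0.5 h and 112 rather than 169 at 1 h for the difference in response. At 0.5 h in FosKO it gave 301 rather than 823. Leaving out single libraries gave 9 to 24 calls for the difference in response at 0.5 h and 542 to 960 at 0.5 h in FosKO. The causes were not tested. Under quantile normalisation the share of higher calls went from 55.1% to 45.3%, 51.9% to 45.6%, 53.1% to 42.8% and 54.6% to 43.0% between genotypes at 0, 0.5, 1 and 2 h. After LPS in LysM-Cre it went from 70.3% to 48.3%, 53.8% to 37.6% and 50.3% to 40.0%, and in FosKO from 75.2% to 50.5%, 54.0% to 35.3% and 52.5% to 39.2%. The median shift moved it up between genotypes (57.0%, 56.8%, 55.3% and 62.6%) and at 1 and 2 h of LPS (61.2% and 55.4% in LysM-Cre, 62.1% and 60.7% in FosKO), and from 48.5% to 59.1% for the difference in response at 2 h. Quantile normalisation moved that last share down to 40.0%. Of the 2 genes most like each of the 7, Spearman's rho kept 1 for Plau, Plaur, Plat, F3 and F10 and none for Serpinb2 and Thbs1, and r over the 8 group means kept both for Plaur, 1 for Plat and Thbs1 and none for the other 4. Read depth, not given per library, limits values near the floor.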

Other observations

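The following genes of the list fall outside the rule for named genes and were chosen after their values were seen. Both chains of the annexin A2 complex, a plasminogen receptor at the cell surface, were lower in the libraries labelled FosKO at all 4 times without overlap: Anxa2 by 0.31, 0.29, 0.31 and 0.27 and S100a10 by 0.30, 0.31, 0.42 and 0.28 (SE 0.02, all called). Plgrkt, another plasminogen receptor, was higher by 0.24, 0.37, 0.24 and 0.22 (SE 0.04, all called). Of the receptors that thrombospondin-1 binds, Cd36 was lower by 0.65, 0.70, 0.63 and 0.56 at the 4 times (SE 0.06, all called), and Cd47 was higher by 0.37, 0.44, 0.27 and 0.15 (SE 0.05, all called).

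Both genes of the list that encode receptors of the protein C pathway responded to LPS, in opposite directions. Thbd, thrombomodulin, fell by 1.54 at 2 h in LysM-Cre (adjusted p 2.81e-12) and by 1.38 in FosKO (adjusted p 1.5e-11). Procr, the endothelial protein C receptor, rose by 0.89 and 0.99, respectively, and was higher in FosKO at all 4 times, by 0.46 to 0.57. Outside that pathway, Tgm2, a tissue transglutaminase, rose by 1.69 at 2 h in LysM-Cre macrophages and by 1.40 in those labelled FosKO.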
